A study of Danio rerio with 6 samples.

Results

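Zebrafish (Danio rerio) genes for the contractile filaments of striated muscle and for the calcium stores that switch contraction on and off were compared between wild-type and 3etv mutant embryos. The members were the 102 of 32057 genes in the count table whose symbols begin with the names of myosin heavy and light chains, myosin light chain kinases, troponins, tropomyosins, sarcomeric alpha-actinins, titin, nebulin, myosin-binding proteins, myomesins, myozenins, telethonin, tropomodulins, leiomodins, Unc45 chaperones, calsequestrins, ryanodine receptors and SERCA calcium pumps; the heart genes myl7 and tnnt2a were left out. The rule itself uses symbols alone, but it and the slow and fast lists were drawn up with earlier results of these data known. It also took in genes of the heart, of smooth muscle and of non-muscle cells, and these are given apart.

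Each library was made from 1 whole embryo at 30 hours post fertilisation (hpf), with 3 wild-type embryos and 3 embryos labelled 3etv, which the series title describes as Pea3 triple mutants. Pea3 factors are ETS transcription factors that act downstream of FGF signalling. The labels name neither the 3 mutated genes and their alleles nor the strain, the parents or any treatment, and embryos are called WLD301, WLD302 and WLD303 in the wild type and MUT301, MUT302 and MUT303 in the mutant, and their values are given in that order. Nothing in the labels says that embryos came from separate clutches, so p-values measure the spread between these embryos.

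In a striated muscle fibre, myosin of the thick filaments pulls on actin of the thin filaments, and troponin and tropomyosin block that contact until calcium binds. Titin and nebulin set filament lengths, the Z-disc anchors the thin filaments and the M-band ties the thick filaments together. Ryanodine receptors release calcium from the sarcoplasmic reticulum, calsequestrin stores it there, and SERCA pumps take it back. The zebrafish trunk carries a surface layer of slow fibres, which arise from adaxial cells beside the notochord under Hedgehog signalling, and a deeper mass of fast fibres. Fast and slow fibres use different paralogs of most filament proteins. In zebrafish, Fgf8 is known to promote fast fibre differentiation in the lateral somite.

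Counts in genes ran from 17570505 to 25512862 per library, and every mutant library was smaller than every wild-type one. Of all reads in the table's gene and summary lines, those in no gene made up 53.6% to 54.3% in wild type and 55.3% to 55.4% in mutants. Reads with several alignments, which are counted for no gene, made up 6.1% to 6.5% in wild type and 5.14% to 5.32% in mutants. Neither range overlapped between groups, and their part in the results on close paralogs was not tested. Levels are given as CPM, the counts of a gene scaled to its TMM-adjusted library size, and are not corrected for transcript length, so they are compared between embryos and not between genes. A floor of 3 counts was worth between 0.117 and 0.177 CPM, which covers counting error only. As a check of tissue, all 7 skeletal muscle markers listed were present; 4 of these symbols are also members. Their summed level ran from 15500 to 17600 CPM in the wild types and from 12700 to 15400 CPM in the mutants. The markers did not move together. Of 8 tested entries, 3 were called lower, 2 higher and 3 not called, where 26.0% of all tested genes were called. In whole embryos, fewer muscle cells and less RNA per cell cannot be told apart.

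Of the 102 members, 90 passed the filter on low counts and were tested. The other 12 held at most 14 counts in any library. They were the fast-type tnni2a.1, tnni2a.2, tnni2a.3, tnni2b.2 and mybpc2a, the slow-type tnni1a, and myl2a, myl2b, lmod2a, tnnt2b, tnni4a and tnni4b.1. Of the tested members, 34 fell and 10 rose in mutants, and 46 did not pass the test (edgeR quasi-likelihood test with Benjamini-Hochberg adjustment over all genes, threshold 0.05). Thus 48.9% of tested members were called, against 26.0% of all 19889 tested genes. The share lower in mutants was 37.8% for members and 13.5% for all genes, where 12.6% were higher. The log2 change is the log2 fold change, mutant over wild type, from the edgeR fit. Its median was -0.29 over tested members and -0.0068 over all tested genes. Every mutant lay below every wild type in 37 members, and in 21.2% of all genes. In 47 members (52.2%) the groups did not overlap in either direction, against 42.9% of all genes. Called members overlapped between groups in 3 cases, actn3a, actn3b and tnni1c.

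The members together took 3.67%, 4.59% and 4.50% of gene counts in WLD301, WLD302 and WLD303, and 3.01%, 3.38% and 2.81% in MUT301, MUT302 and MUT303. The 13 genes listed as slow, which carry slow-fibre names or are known from slow fibres, took 0.252%, 0.346% and 0.328% in wild type and 0.191%, 0.201% and 0.158% in mutants. For the 33 genes listed as fast, the shares were 2.45%, 2.96% and 2.93% in wild type and 2.03%, 2.36% and 2.02% in mutants. All 3 mutants lay below all 3 wild types in each of these shares of unscaled counts, and WLD301 was the lowest of its group in all of them. On the TMM scale the fast sums overlapped, with MUT302 at 24500 CPM and WLD301 at 24300 CPM, while the slow sums, from 2490 to 3430 CPM in the wild types and from 1670 to 2080 CPM in the mutants, did not. The ratio of fast to slow counts was 9.73, 8.57 and 8.94 in wild type and 10.6, 11.7 and 12.8 in mutants, again without overlap. These sums weigh long and abundant transcripts most and are given without a test. The mean slow sum was 3000 CPM in the wild types and 1880 CPM in the mutants. The slow myosin gene smyhc1 alone made up 1540 and 770 CPM of it. The slow sum and the ratio thus rest largely on that gene, and the ratio was not taken without it.

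**Figure D1:**
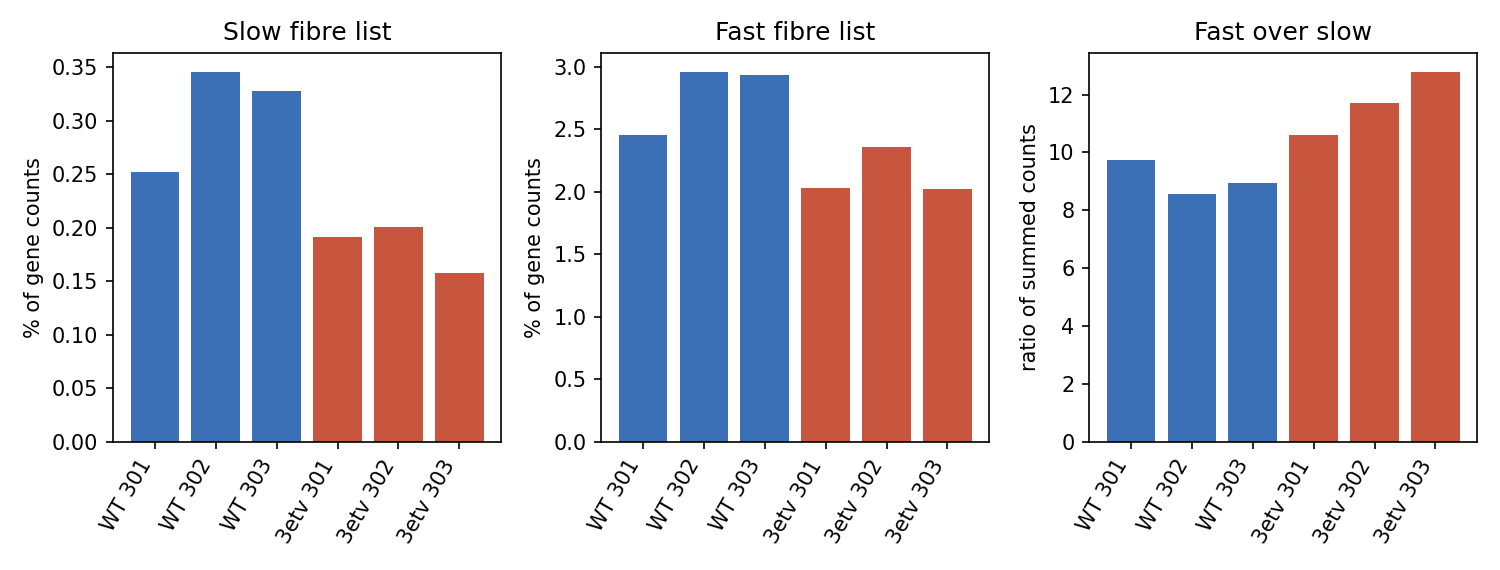
Bars give each embryo's share of gene counts (percent) in genes listed as slow and as fast, and the ratio of fast to slow counts; blue is wild type (WT), red is 3etv. The mutant shares of unscaled counts lie below the wild-type shares in both lists. However, the TMM-scaled fast sums of MUT302 (24500 CPM) and WLD301 (24300 CPM) overlap. The mutant ratios, from 10.6 to 12.8, lie above the wild-type ratios, from 8.57 to 9.73. A large part of the slow counts belongs to smyhc1 alone, and the ratio was not taken without it.

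Slow and fast genes were then set side by side. Of 12 tested slow genes, 5 fell and 3 rose, with a median log2 change of -0.52. Of 28 tested fast genes, 8 fell and 2 rose, with a median of -0.18. Thus 66.7% of slow and 35.7% of fast genes were called, against 26.0% of all tested genes. The groups did not overlap in 58.3% of slow and 39.3% of fast genes, against 42.9% of all. The slow median minus the fast median was -0.34, which is a description of the lists and was not tested. It ranged from -0.45 without WLD302 to -0.21 without MUT303. The fast median itself was -0.07 without WLD302, -0.08 without MUT301 and -0.27 without WLD301. The number of fast genes called lower fell from 8 to 5 without WLD302, WLD303 or MUT301, and to 4 without MUT303.

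**Figure D2:**
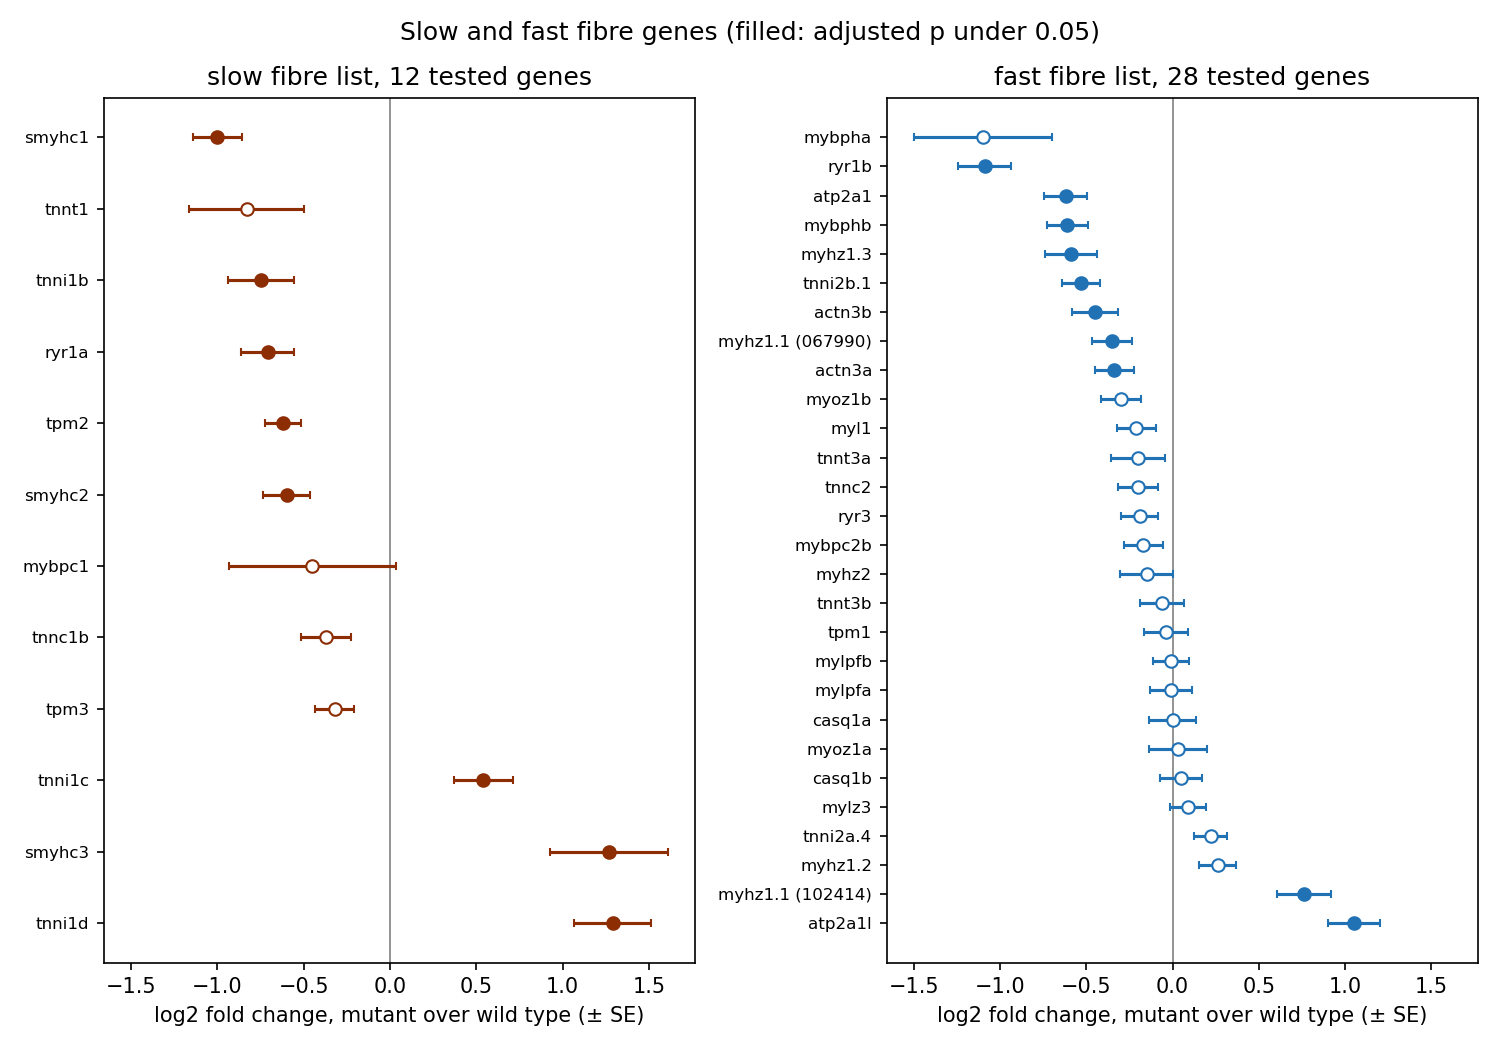
Points give the log2 change, mutant over wild type, with its SE for each tested gene of the slow list (left, 12 genes) and the fast list (right, 28 genes); filled points passed an adjusted p of 0.05 in edgeR. Slow genes run from -1.0 for smyhc1 to 1.29 for tnni1d, and 18 of the 28 fast genes are open points that did not pass. The share of fast genes called was 35.7%, against 26.0% of all tested genes.

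Among slow myosin heavy chains, the motor proteins of the thick filament, neighbouring genes moved in opposite directions. The main embryonic slow myosin gene smyhc1 (ENSDARG00000099959) stood at 1230, 1750 and 1620 CPM in WLD301, WLD302 and WLD303 and at 802, 856 and 652 CPM in MUT301, MUT302 and MUT303. The highest mutant was thus far below the lowest wild type. Its mean went from 1540 ± 271 CPM (SD, n = 3) to 770 ± 106 CPM (SD, n = 3), a log2 change of -1.0 ± 0.141 (SE, edgeR adjusted p = 0.000408). For smyhc2 the wild-type levels were 118, 148 and 166 CPM and the mutant levels 102, 105 and 78.1 CPM. These groups did not overlap either, and the log2 change was -0.60 ± 0.134 (edgeR adjusted p = 0.00655). The third gene, smyhc3, was at 2.44, 3.85 and 9.60 CPM in the wild types and at 12.2, 13.9 and 12.4 CPM in the mutants. All mutants were above all wild types, but the wild types differed among themselves, with WLD303 far above the others. Its log2 change was 1.27 ± 0.341 (edgeR adjusted p = 0.0166). The smyhc3 value was 2.01 without WLD303, and the call was lost without WLD302 (adjusted p = 0.0614), with robust dispersion (0.0859) and in the DESeq2 Wald test (0.0857); the adjusted p ran from 0.000212 to 0.0859 over all alternatives. In the RefSeq gene table of assembly GRCz12tu, smyhc1, smyhc2 and smyhc3 lie side by side with no other protein-coding gene between them. Reads that align to several such copies are counted for no gene, and how far this affects the count of each was not tested.

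The thin-filament switch genes of the slow list also went both ways. Tropomyosin lies along actin and troponin moves it when calcium binds. The tropomyosin gene tpm2 was at 298, 372 and 337 CPM in the wild types and at 215, 242 and 201 CPM in the mutants, with a log2 change of -0.62 ± 0.105 (edgeR adjusted p = 0.00139). No mutant reached the lowest wild type. For tpm3, levels of 599, 796 and 682 CPM in the wild types and 547, 602 and 515 CPM in the mutants overlapped slightly. Its log2 change of -0.32 ± 0.114 missed the threshold (edgeR adjusted p = 0.0547), and passed it without WLD301 (0.0194), with library totals alone (0.024), with no filter (0.033) and in the DESeq2 Wald test (0.0273); the range over all tpm3 alternatives was from 0.0194 to 0.191.

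Slow troponin C, tnnc1b, the calcium-binding subunit, was at 133, 197 and 150 CPM in the wild types and at 109, 148 and 115 CPM in the mutants. One mutant level lay inside the wild-type range, and the log2 change of -0.37 ± 0.145 did not pass (edgeR adjusted p = 0.0803). The tnnc1b change passed without WLD301 (0.0286), without MUT302 (0.0351) and in 3 other settings, over a range from 0.0147 to 0.304. Slow troponin T, tnnt1, which binds tropomyosin, held 16 to 92 counts and had a log2 change of -0.83 ± 0.333 (edgeR adjusted p = 0.0839); without WLD303 the value was -1.06 (0.0454).

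Slow-type troponin I genes code for the inhibitory subunit and went both ways. The tnni1b level fell from 10.3 ± 1.37 CPM to 6.09 ± 1.56 CPM, a log2 change of -0.75 ± 0.191 (edgeR adjusted p = 0.0126). The tnni1d level was 1.38, 1.98 and 1.99 CPM in the wild types and 4.09, 4.24 and 4.86 CPM in the mutants. It rose in every mutant above every wild type, with the largest positive log2 change of the slow list, 1.29 ± 0.222 (edgeR adjusted p = 0.00144). For tnni1c the log2 change was 0.54 ± 0.170 (edgeR adjusted p = 0.0346), with overlapping groups. The tnni1c call was lost without WLD301 (0.0917), WLD303 (0.131), MUT302 (0.1) or MUT303 (0.0761), with library totals alone (0.0527) and with robust dispersion (0.0583), within a range from 0.00135 to 0.131. The slow myosin-binding protein gene mybpc1 held 5 to 16 counts and was not called, at -0.45 ± 0.483 (edgeR adjusted p = 0.528).

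Fast myosin heavy chains gave 2 lower, 1 higher and 2 uncalled entries, where 26.0% of all tested genes were called. The level of myhz1.3 (ENSDARG00000067997) was 3400, 5050 and 3880 CPM in the wild types and 2610, 3140 and 2420 CPM in the mutants. The groups did not overlap, although WLD302 stood well above the other two. The log2 change was -0.59 ± 0.152 (edgeR adjusted p = 0.0133); without MUT303 the myhz1.3 call was lost (0.0603, within a range from 0.000246 to 0.0603).

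The symbol myhz1.1 marks a pair of entries that moved apart. One, myhz1.1 ENSDARG00000067990, was at 2190, 2610 and 2630 CPM in the wild types and at 1800, 2140 and 1880 CPM in the mutants, a log2 change of -0.35 ± 0.115 (edgeR adjusted p = 0.0384). The highest mutant was just under the lowest wild type. That call was lost without WLD302 (0.0786), WLD303 (0.123), MUT301 (0.127), MUT302 (0.0544) or MUT303 (0.125), within a range from 0.00699 to 0.127. The other entry, myhz1.1 ENSDARG00000102414, was at 6.63, 5.79 and 5.19 CPM in the wild types and at 9.39, 9.19 and 11.2 CPM in the mutants, a log2 change of 0.76 ± 0.157 (edgeR adjusted p = 0.00425).

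The uncalled fast heavy chains were myhz1.2 at 0.26 ± 0.109 (edgeR adjusted p = 0.0997) and myhz2 at -0.15 ± 0.153 (0.512). Without WLD302 the myhz1.2 value was 0.38, and it passed (0.0134, within a range from 0.0134 to 0.319). In the RefSeq table myhz1.3, myhz1.2 and myhz1.1 are neighbours, and as with the slow genes the effect of shared reads on their counts was not tested.

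None of the 4 fast myosin light chain genes was called in edgeR, DESeq2 or limma-voom, against 26.0% of all tested genes in edgeR. Of these 4, 0 had an unadjusted edgeR p under 0.05. These genes code for the small subunits that steady the myosin neck. The regulatory light chain gene mylpfa was at 3470, 3730 and 3700 CPM in the wild types and at 3080, 3950 and 3810 CPM in the mutants. MUT302 and MUT303 lay above every wild type and MUT301 below every one. Its log2 change was -0.01, with a 95% interval from -0.24 to 0.23 (edgeR adjusted p = 0.97). The related mylpfb was at -0.01 with an interval from -0.21 to 0.19, mylz3 at 0.09 from -0.11 to 0.30, and myl1 at -0.21 from -0.43 to 0.01, and their adjusted p-values lay between 0.188 and 0.963. A drop as large as that of myhz1.3 thus lay outside each of these intervals, while shifts inside the intervals may be missed. That light and heavy chains differ was not tested.

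**Figure D3:**
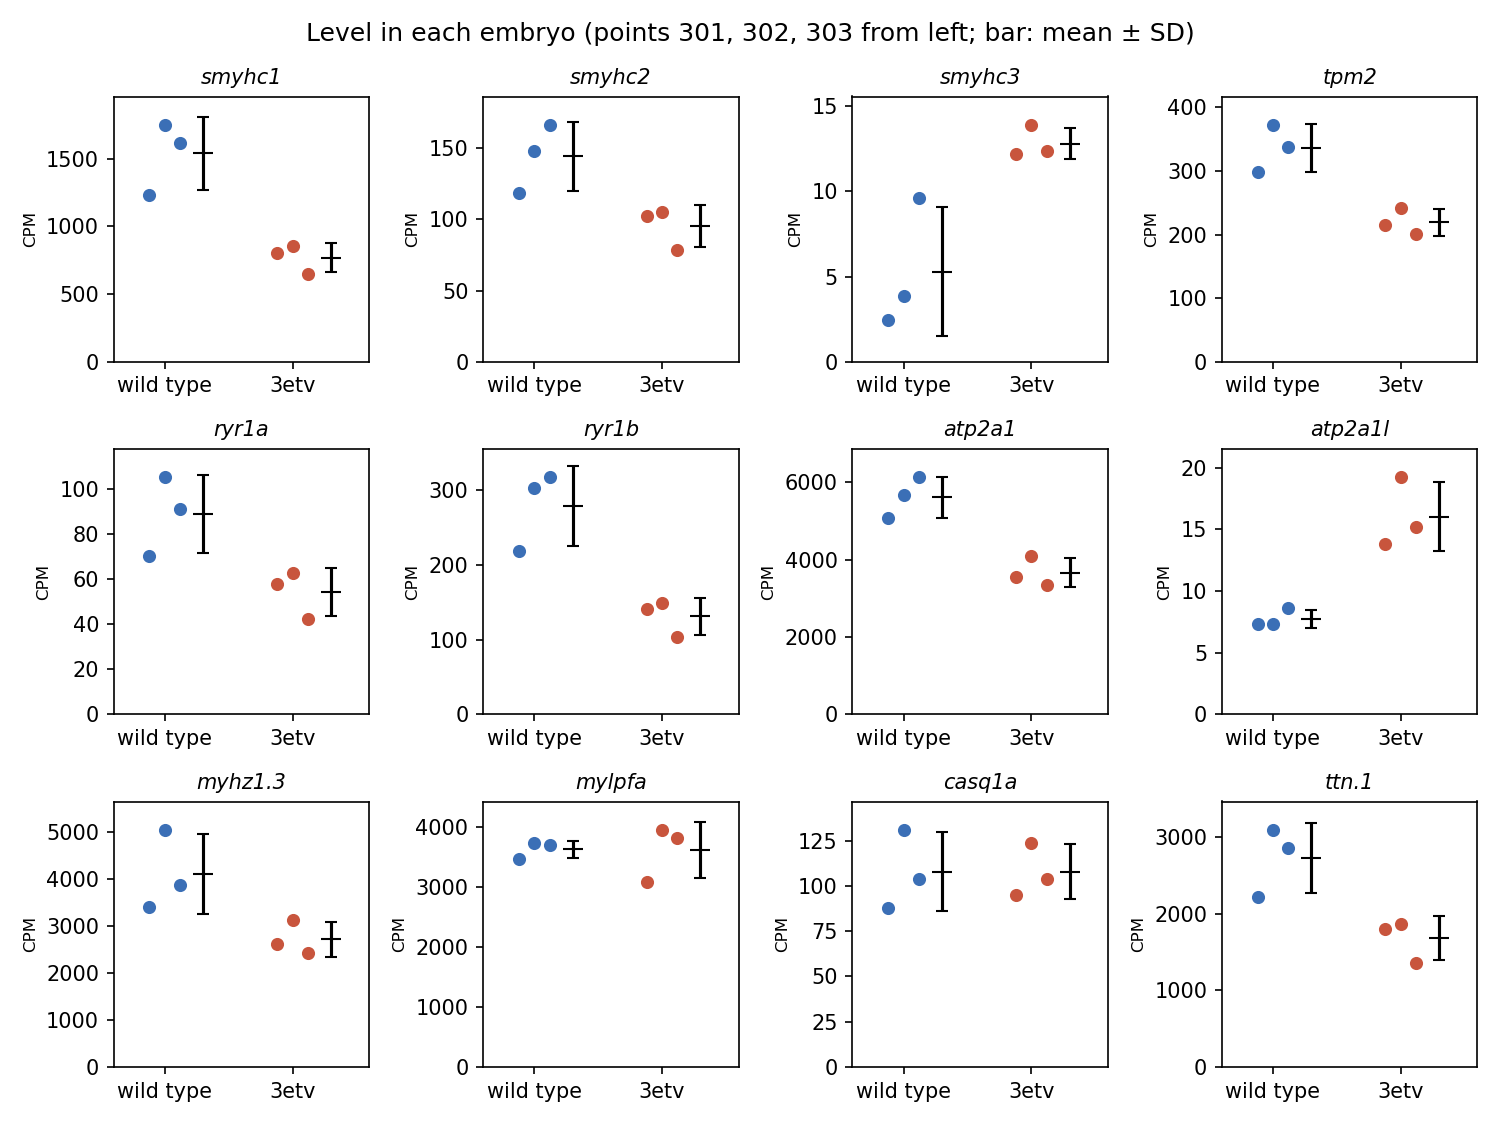
Each panel gives the level of 1 gene in CPM in the 3 wild-type (blue) and 3 mutant (red) embryos, with the mean ± SD beside them, on an axis that starts at 0. All mutant points lie below all wild-type points for smyhc1, smyhc2, tpm2, ryr1a, ryr1b, atp2a1, myhz1.3 and ttn.1. They lie above them for smyhc3 and atp2a1l, and the groups overlap for mylpfa and casq1a. The genes shown were picked and do not stand for all members. Groups did not overlap in 52.2% of tested members, 58.3% of slow and 39.3% of fast genes, against 42.9% of all tested genes.

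Of 5 tested fast troponin genes 1 was called, where 26.0% of all tested genes were. This was the troponin I gene tnni2b.1, which fell from 817 ± 62.5 CPM to 566 ± 72.8 CPM, a log2 change of -0.53 ± 0.110 (edgeR adjusted p = 0.00445). Its counterpart tnni2a.4 was at 435 ± 16.1 CPM in the wild types and 506 ± 45.4 CPM in the mutants and did not pass (0.22 ± 0.0946, adjusted p = 0.109), although each mutant lay above each wild type. Troponin C, tnnc2, was at -0.20 (interval from -0.43 to 0.02), and the troponin T genes tnnt3a and tnnt3b were at -0.20 (from -0.51 to 0.10) and -0.06 (from -0.31 to 0.19). The tropomyosin entry listed as fast, tpm1, was at 19.8 ± 1.55 CPM in the wild types and 19.3 ± 2.92 CPM in the mutants. Its log2 change was -0.04 (from -0.29 to 0.21). Whether tpm1 is the main tropomyosin gene of fast fibres was not tested. Of the fast myosin-binding proteins, which clamp the thick filament, mybphb fell from 473 ± 37.8 CPM to 311 ± 51.4 CPM, by 0.61 ± 0.118 on the log2 scale (edgeR adjusted p = 0.00307). Fast myosin-binding protein C, mybpc2b, was at -0.17 ± 0.114 and was not called (adjusted p = 0.279). The low mybpha, with 4 to 38 counts, was at -1.1 ± 0.402 and missed the threshold (0.0607, within a range from 0.0455 to 0.19).

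Titin and the M-band genes were the only role of more than 1 tested member in which all, 5 of 5, fell. Over all tested genes, 13.5% were called lower. Titin spans from the Z-disc to the M-band. Its adjacent genes ttn.1 and ttn.2 are both very long. For ttn.1 the levels were 2210, 3090 and 2850 CPM in the wild types and 1800, 1870 and 1350 CPM in the mutants, a log2 change of -0.70 ± 0.150 (edgeR adjusted p = 0.0053). For ttn.2 they were 2230, 3130 and 2890 CPM against 1910, 1990 and 1510 CPM, a log2 change of -0.61 ± 0.143 (edgeR adjusted p = 0.00845). In both, the mutants lay below the lowest wild type, WLD301, and MUT303 was the lowest of all.

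The M-band cross-linker gene myom1b (ENSDARG00000104836) was at 63.8, 103 and 95.8 CPM in the wild types and at 43.2, 49.1 and 24.7 CPM in the mutants, a log2 change of -1.17 ± 0.216 (edgeR adjusted p = 0.00225). It was the largest drop among called members with a mean of at least 50 counts. For myom2a the log2 change was -0.63 ± 0.120 (edgeR adjusted p = 0.00275), and for myom1a it was -0.47 ± 0.127 (0.0165). The myom1a call was lost without WLD302 (0.053), WLD303 (0.0667) or MUT303 (0.0779), within a range from 0.00263 to 0.0779.

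Of 9 tested genes that set thin filament length, 5 fell and 1 rose, and 1 of 2 myosin chaperone genes fell. The share called was 66.7% for the thin filament length genes, against 26.0% of all tested genes. That role pools lists. Of its 4 tested genes listed as shared sarcomere frame, 2 fell and 2 were not called. Of its 2 heart-leaning genes 1 fell and 1 rose, and of its 3 smooth muscle and non-muscle genes 2 fell. Nebulin, neb, a ruler along the thin filament, went from 1260 ± 197 CPM to 752 ± 101 CPM, a log2 change of -0.75 ± 0.133 (edgeR adjusted p = 0.00175). The leiomodin gene lmod3, whose product starts and lengthens actin filaments, was at 22.8, 31.7 and 25.2 CPM in the wild types and at 13.9, 19.1 and 12.1 CPM in the mutants, a log2 change of -0.83 ± 0.167 (edgeR adjusted p = 0.00367). Its groups did not overlap. The pointed-end caps tmod1 and tmod4 were not called (-0.41 ± 0.237 and -0.28 ± 0.103, adjusted p = 0.218 and 0.063). The gene unc45b, a chaperone that folds myosin heads in muscle, fell from 271 ± 24.6 CPM to 162 ± 15.4 CPM, a log2 change of -0.75 ± 0.101 (edgeR adjusted p = 0.000298). Its general counterpart unc45a was at -0.10 (interval from -0.42 to 0.22, adjusted p = 0.698).

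Of 9 tested Z-disc genes, 3 fell and 1 rose, so that 44.4% were called, against 26.0% of all tested genes. These Z-disc genes include 2 heart-leaning ones, of which 1 fell. The fast alpha-actinins, which cross-link actin there, fell by 0.34 ± 0.113 for actn3a and 0.45 ± 0.136 for actn3b on the log2 scale (edgeR adjusted p = 0.0442 and 0.0293), with overlapping groups. Both calls were lost without WLD302, WLD303, MUT301 or MUT303: for actn3a the adjusted p was then 0.129, 0.12, 0.133 and 0.164, and for actn3b 0.0904, 0.101, 0.0816 and 0.126. Over all alternatives they ran from 0.0133 to 0.164 and from 0.0064 to 0.126. The myozenins myoz1a, myoz1b and myoz3a, which tie calcineurin to the Z-disc, and the alpha-actinin actn2b were not called. The one that rose was tcap, coding for telethonin, the cap of titin at the Z-disc, at 4.65, 5.87 and 2.55 CPM in the wild types and at 9.39, 13.0 and 9.44 CPM in the mutants. It rose in all 3 mutants while titin fell, with a log2 change of 1.28 ± 0.250 (edgeR adjusted p = 0.00313).

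**Figure D4:**
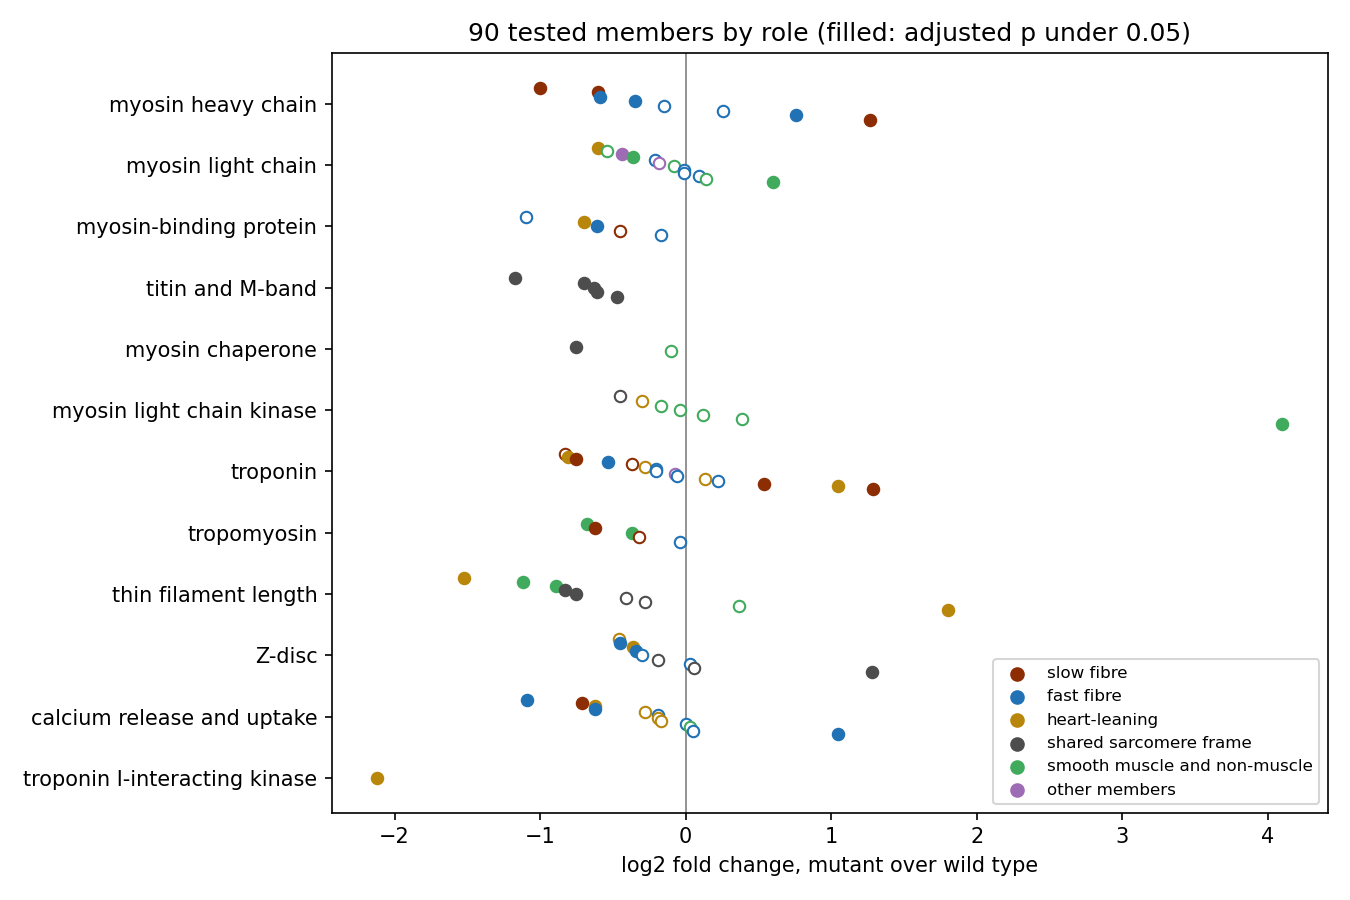
Each point is 1 of the 90 tested members, placed by role and by its log2 change, mutant over wild type, and coloured by list; filled points passed an adjusted p of 0.05 in edgeR. All 5 titin and M-band genes lie between -1.17 and -0.47. Open points make up 8 of 12 myosin light chains and 9 of 15 troponins. The shares called were 33.3% and 40%, against 26.0% of all tested genes.

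The main calcium release gene of each list fell. In zebrafish, ryr1a is known as the ryanodine receptor of slow fibres and ryr1b as that of fast fibres. For ryr1b (ENSDARG00000023797) the counts were 4731, 7792 and 7327 in the wild types and 2795, 2527 and 1890 in the mutants, and the mean level went from 279 ± 53.7 CPM to 131 ± 24.5 CPM. WLD301 was again the nearest to the mutants, without reaching them. The log2 change was -1.09 ± 0.154, the largest drop among called fast genes (edgeR adjusted p = 0.000399). For ryr1a the levels were 70.4, 105 and 90.9 CPM against 57.7, 62.6 and 42.4 CPM, a log2 change of -0.71 ± 0.155 (edgeR adjusted p = 0.00545). The fast gene of this pair had the larger value, unlike the list medians; the difference between the genes was not tested. A further ryanodine receptor gene listed as fast, ryr3, was at -0.19 (interval from -0.40 to 0.02, adjusted p = 0.22).

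SERCA pump paralogs moved apart. The fast-fibre pump gene atp2a1 (ENSDARG00000020574) was at 5060, 5670 and 6120 CPM in the wild types and at 3560, 4080 and 3350 CPM in the mutants, a log2 change of -0.62 ± 0.123 (edgeR adjusted p = 0.0034). No mutant reached the wild-type range. Its namesake atp2a1l (ENSDARG00000035458) was at 7.32, 7.31 and 8.61 CPM in the wild types and at 13.8, 19.2 and 15.2 CPM in the mutants, a log2 change of 1.05 ± 0.151 (edgeR adjusted p = 0.00048). Here every mutant was above every wild type. The slow and heart pump genes atp2a2a and atp2a2b were at -0.19 ± 0.141 and -0.17 ± 0.0887 (adjusted p = 0.344 and 0.186), and atp2a3, used outside muscle, was at 0.03 ± 0.120 (0.886).

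Neither calcium storage gene listed as fast was called, where 26.0% of all tested genes were. Over the 12 tested genes for calcium release, storage and uptake, 41.7% were called. For casq1a the levels were 87.7, 131 and 104 CPM in the wild types and 94.9, 124 and 104 CPM in the mutants, and for casq1b they were 30.7, 42.8 and 33.7 CPM against 34.8, 40.2 and 36.6 CPM. The mutant range lay inside the wild-type range in both. Their log2 changes had intervals from -0.27 to 0.27 for casq1a and from -0.18 to 0.29 for casq1b, so a drop of the size seen for atp2a1 lay outside both. The slow and heart calsequestrin gene casq2 fell from 304 ± 47.4 CPM to 198 ± 32.0 CPM, a log2 change of -0.62 ± 0.132 (edgeR adjusted p = 0.00515).

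Of the 16 tested members listed as heart-leaning by symbol, 7 fell and 2 rose. This made 56.2% called, against 26.0% of all tested genes. Beside them, the 8 tested heart markers, none of them a member, had log2 changes from -0.60 to 0.67 and did not pass the test, with 2 at an unadjusted p under 0.05. The summed level of the 9 heart markers found ran from 42.4 to 54.1 CPM in the wild types and from 40.5 to 47.3 CPM in the mutants. The most abundant heart-leaning member by counts, the troponin T gene tnnt2c, fell from 789 ± 200 CPM to 450 ± 88.3 CPM, a log2 change of -0.81 ± 0.170 (edgeR adjusted p = 0.00461). Without correction for length, tnnt2c stood above the summed heart markers in every embryo. The name heart-leaning follows symbols, and the tissue that these counts came from was not tested. The myosin-binding protein gene mybpc3 fell by 0.70 ± 0.0991 on the log2 scale (edgeR adjusted p = 0.00044) and the light chain gene myl4 by 0.60 ± 0.167 (0.019). The troponin pattern also took in, by name, the kinase gene tnni3k, whose product binds cardiac troponin I. This gene fell from 2.0 ± 0.565 CPM to 0.458 ± 0.114 CPM, a log2 change of -2.12 ± 0.360 (edgeR adjusted p = 0.00131). It held 35 to 68 counts in wild type and 7 to 10 in mutants, and passed the low-count filter through the wild types. In the opposite direction, the troponin T gene tnnt2e was at 2.62, 5.37 and 2.90 CPM in the wild types and at 7.83, 7.66 and 7.26 CPM in the mutants, a log2 change of 1.05 ± 0.239 (edgeR adjusted p = 0.00714). All 3 mutants were above all 3 wild types.

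The nebulette gene nebl rose by 1.80 ± 0.554 on the log2 scale, from 13, 16 and 1 counts in wild type to 24, 38 and 19 in mutants (edgeR adjusted p = 0.0311), and its call was lost without WLD303 (value 1.27, adjusted p = 0.0715) or MUT302 (1.41, 0.13). The leiomodin gene lmod2b fell by 1.52 ± 0.404 (edgeR adjusted p = 0.0161), and its call was lost without WLD302 (0.0676) or MUT303 (0.0662). Of these low genes, nebl passed the low-count filter through the mutants and lmod2b through the wild types. The myozenin gene myoz2a fell by 0.36 ± 0.113 (edgeR adjusted p = 0.035), with adjusted p-values of 0.112, 0.0782, 0.13 and 0.09 without WLD302 and WLD303 and MUT301 and MUT303. The myl4 call given above was lost without WLD302 (0.0679), WLD303 (0.0724) or MUT303 (0.0731). Among members in no list, the light chain gene myl10 fell by 0.44 ± 0.0939 (edgeR adjusted p = 0.0051), and myl13 and tnni4b.2 were not called.

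Members listed as used mainly in smooth muscle and non-muscle cells formed the last list, with 5 of 17 lower, 2 higher and a median log2 change of -0.08. The share called was 41.2%, against 26.0% of all tested genes. The leiomodin gene lmod1a, a smooth muscle gene in mammals, was at 9.43, 14.5 and 8.91 CPM in the wild types and at 6.01, 4.77 and 4.37 CPM in the mutants, a log2 change of -1.12 ± 0.208 (edgeR adjusted p = 0.00232). For the tropomodulin gene tmod2 the levels were 9.62, 12.3 and 11.6 CPM against 7.72, 5.95 and 4.42 CPM, a log2 change of -0.89 ± 0.192 (edgeR adjusted p = 0.00545). Neither gene's groups overlapped. The tropomyosins tpm4a and tpm4b fell by 0.37 ± 0.0922 and 0.68 ± 0.117 (edgeR adjusted p = 0.0121 and 0.00137) and the light chain gene myl6 by 0.36 ± 0.0968 (0.0162). The tpm4a call was lost without MUT301 (0.0553), and that of myl6 without MUT302 (0.0768) or MUT303 (0.0607).

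The largest change of any member was in mylkb, a myosin light chain kinase gene of the smooth muscle type, with 3, 5 and 7 counts in wild type and 80, 61 and 65 in mutants. At 0.138, 0.194 and 0.303 CPM against 4.04, 3.60 and 3.55 CPM it was near the floor in every wild type and well above it in every mutant. The log2 change was 4.10 ± 0.332 (edgeR adjusted p = 6.27e-06), and its size rests on those few wild-type counts. The gene passed the low-count filter only through the mutants, where it is high. Its substrate gene myl9b, a regulatory light chain of smooth muscle and non-muscle myosin, was at 74.0, 94.2 and 93.8 CPM in the wild types and at 147, 130 and 119 CPM in the mutants, a log2 change of 0.60 ± 0.112 (edgeR adjusted p = 0.00243). All mutants were above all wild types. The smooth muscle markers were low, with a summed level of 3.03 to 3.77 CPM in the wild types and 2.47 to 3.18 CPM in the mutants over the 6 of 7 found, and the 3 tested ran from -0.84 to 0.85 in log2 change without passing (unadjusted p from 0.0548 to 0.715).

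Muscle genes outside the symbol rule were taken from a pair of lists, chosen with earlier results of these data known. Of 43 tested genes for excitation, membrane anchoring and calcium coupling, 22 fell and 2 rose, with a median log2 change of -0.47. Thus 55.8% were called, against 26.0% of all tested genes, whose median was -0.0068. The membrane-tubule gene bin1b and the sarcoglycan genes sgcd and sgcg, which help to tie the fibre membrane to its skeleton, fell most among those with a mean of at least 50 counts, by 1.14 ± 0.163, 1.1 ± 0.179 and 1.02 ± 0.200 on the log2 scale (edgeR adjusted p = 0.000442, 0.00104 and 0.00319). The 2 that rose were parvalbumins, soluble calcium buffers of fast muscle: pvalb1 at 323 ± 23.8 CPM in the wild types and 478 ± 67.9 CPM in the mutants (0.56 ± 0.112, edgeR adjusted p = 0.00338), and pvalb2 at 497 ± 48.1 CPM and 647 ± 54.9 CPM (0.38 ± 0.104, adjusted p = 0.0186). The pvalb2 call was lost without WLD302 (0.0523), MUT302 (0.0678) or MUT303 (0.0711).

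Of 57 tested genes for other sarcomere, assembly and energy proteins, 35 fell and 6 rose, with a median of -0.54. Thus 71.9% were called, against 26.0% of all tested genes. Among those with a mean of at least 50 counts, the largest drop was in actc1a ENSDARG00000076126, an actin entry with 5084, 9462 and 7418 counts in wild type and 6, 9 and 10 in mutants (-9.39 ± 0.244, edgeR adjusted p = 2.5e-10). A second actc1a entry, ENSDARG00000042535, was not called (0.26 ± 0.179, edgeR adjusted p = 0.314). It was at 433 ± 111 CPM in the wild types and 517 ± 107 CPM in the mutants. Reads with several alignments are counted for no gene, and the part of read assignment in the values of these entries was not tested. The next largest drops were in the muscle glycogen phosphorylase gene pygma (-1.52 ± 0.154, adjusted p = 3.87e-05) and in klhl41a (-1.44 ± 0.251, 0.00153). Under the same limit on counts, the largest rises were in the myosin heavy chain gene myha (2.29 ± 0.333, edgeR adjusted p = 0.000494), in the myoglobin gene mb (1.58 ± 0.213, 0.000298) and in the myosin gene myhb (0.93 ± 0.244, 0.0145). The myhb call was lost without WLD302 (0.0543) or MUT303 (0.0506).

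A further 4 genes of that list were picked with their values in view, and some related genes are set beside them. The gene hsp90aa1.1, a chaperone that works with Unc45b on myosin, fell from 746 ± 101 CPM to 347 ± 74.5 CPM, a log2 change of -1.1 ± 0.148 (edgeR adjusted p = 0.000285). The gene smyd1b, coding for a methyltransferase needed for thick filament assembly in zebrafish, fell from 249 ± 28 CPM to 134 ± 15.0 CPM (-0.89 ± 0.109, adjusted p = 0.000151). Its paralog smyd1a was not called (-0.21 ± 0.0991, edgeR adjusted p = 0.136). Among muscle actins, actc1b fell from 5460 ± 462 CPM to 3890 ± 530 CPM (-0.49 ± 0.128, edgeR adjusted p = 0.0145). By contrast, acta1b rose from 1310 ± 80.9 CPM to 1690 ± 127 CPM (0.36 ± 0.102, edgeR adjusted p = 0.0219). Also lower were acta1a (-0.34 ± 0.116, edgeR adjusted p = 0.0452) and actc1c (-0.73 ± 0.162, 0.00636). The calls of acta1a and actc1c were not followed through the alternatives, and the actc1a entries are given above. The actc1b call was lost without WLD303 (0.0629) or MUT303 (0.0729). The acta1b call was lost with library totals alone (0.0539) and without WLD301 (0.0639), MUT302 (0.1) or MUT303 (0.0519), with adjusted p-values over all alternatives from 0.00157 to 0.1.

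Other tissues and gene length were set beside these values. The calls on markers below stand beside 26.0% called over all tested genes. Among 5 neuronal markers 2 were higher and 3 not called. Their summed level ran from 835 to 973 CPM in the wild types and from 987 to 1140 CPM in the mutants. Among 5 epidermal markers 1 was lower, with sums of 13500 to 14800 CPM and 13200 to 14200 CPM. Most of these sums was krt4, with a mean of 11800 CPM in each group. Among 6 blood markers 1 was higher, with sums of 304 to 430 CPM and 419 to 491 CPM. The 5 notochord markers tested ran from -0.39 to 0.10 in log2 change without passing, with sums of 2180 to 2640 CPM and 1900 to 2220 CPM. The median log2 change was -0.26 for epidermal and for skeletal muscle markers and -0.24 for notochord markers. It was -0.15 for heart, 0.13 for smooth muscle and for blood, and 0.19 for neuronal markers. Over the 89 tested members with a genomic span in RefSeq, span and log2 change had a Spearman correlation of -0.24, and over 16138 tested genes with a span it was -0.16. It was -0.38 over 39 genes of the slow and fast lists. All of these points come from the same 6 libraries and genes are not independent. The part of tissue makeup and gene length in the changes of the members was not tested.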

How the data were processed

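Poly-A RNA from 6 single zebrafish embryos was sequenced with a strand-specific protocol, per the labels' protocols. STAR, HTSeq and the genome build GRCz11 are named in the submitters' processing notes; the annotation release and strand setting are not given in the sources used here. The authors deposited raw counts per Ensembl gene, and 5 summary lines that name no gene, 60.1% to 61.1% of all reads listed, were left out.

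All genes were fitted with edgeR 4.0.16 in R 4.3.3 (filterByExpr, TMM scaling, quasi-likelihood test, genotype as the only term), with Benjamini-Hochberg adjustment over 19889 tested genes. SE is the log2 fold change divided by the root of F, and 95% intervals take a normal multiple of it. CPM uses TMM-scaled library sizes. Members and lists were chosen with earlier results of these data known. Genes named by plan were those of the slow and fast lists, called members of the other lists, and the largest changes with a mean of at least 50 counts. Some uncalled members of the other lists and some related genes were named beside them. Some genes outside the symbol rule were picked with their values in view. Symbols of 101 of 102 members matched RefSeq (GRCz12tu), used for gene order and genomic span. Simulated data held 200 changed genes among 19889, far fewer than the 5178 called in the data. The changed genes were drawn from those with a mean of at least 50 counts, so members below that level are not covered. In the simulated data the fit recovered 90% of genes changed by 1 on the log2 scale and 37% of those changed by 0.5. Of its calls on simulated data, 9.29% were false, more than the threshold of 0.05 allows for. Alternatives used DESeq2 1.42.0, limma 3.58.1, other scaling and filters, a replicate block, and each library left out.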

Additional observations from a re-analysis of the deposited data

How the results depend on the processing

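Of 59 called genes followed through the alternatives, 42 kept their call in every run. Of their 881 alternative values, 52 missed the threshold and none changed sign. Members called lower numbered 34, with 32 to 40 under other scaling, filters and tools and 25 to 39 with 1 library left out; members called higher numbered 8 to 10. Library totals without TMM moved the median of all genes to -0.0823 and lowered the percentage of calls with a rise from 48.3% to 34.2%; members then split into 9 higher and 40 lower. The slow median minus the fast median, -0.34, ran from -0.45 to -0.21 with 1 library left out. Values that changed sign all belonged to genes that did not pass the test. With library totals, casq1a was at -0.08, casq1b at -0.02 and myoz1a at -0.05, and with a mean of at least 50 counts casq1a was at 0.00. With 1 library left out, the values ran from -0.13 to 0.17 for casq1a, -0.05 to 0.20 for casq1b, -0.08 to 0.14 for myoz1a, -0.07 to 0.11 for mylpfa, -0.06 to 0.10 for mylpfb, -0.12 to 0.09 for tpm1, -0.32 to 0.02 for tnnt3a and -0.13 to 0.08 for tnnt3b. The cause was not tested.

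Embryos with the same number did not deviate together (correlations -0.0694, 0.0856 and -0.111). With the replicate block, 10 members were higher and 37 lower, and 43 of the 44 called members kept their call. Of the 59 called genes followed, only myhz1.1 ENSDARG00000067990 lost it (adjusted p = 0.0567, edgeR). Among the 22 uncalled genes followed, all of the slow and fast lists, tnnc1b and myoz1b passed. Uncalled members of the other lists were not followed by name. In simulated data with 3 embryos a group, 37% of changes of 0.5 on the log2 scale were recovered. Only 200 genes were changed there, all with a mean of at least 50 counts, against 5178 called in the data. This share therefore does not carry over to the data. Changes of that size may be missed, but how often is not known.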
